A study of Mus musculus with 4 samples.

Results

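Cytoplasmic ribosomal protein genes encode the protein subunits of the ribosomes that translate nuclear mRNAs. They were taken as every protein-coding gene of the GENCODE mouse M21 annotation whose symbol is Rpl or Rps followed by a digit, or Rpsa, Rplp0, Rplp1 or Rplp2. Rps6k kinases and symbols containing -ps were left out. The rule gave 86 of the 47633 rows of the expression table. Of these, 33 belong to the small ribosomal subunit and 52 to the large one. The remaining row, Rps19bp1, entered by its symbol but encodes a protein that binds Rps19 and is not a ribosomal subunit. Among the 86, 8 are paralogs with a symbol derived from another member's (Rpl3l, Rpl7l1, Rpl10l, Rpl22l1, Rpl36al, Rpl39l, Rps27l and Rps27rt).

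RNA sequencing of total RNA was done on mouse embryonic stem (ES) cells and on cells derived from them, all of the 129S2/SvPas strain. The 4 libraries were 1 from cells kept without leukaemia inhibitory factor (LIF) for 2 days, 1 labelled embryoid body (EB) from cells kept without LIF for 5 days, and 2 of ES cells kept with LIF (ES 1 and ES 2). LIF is the cytokine that holds mouse ES cells undifferentiated. The ES cells grew on mitomycin C-treated C57/BL6 embryonic fibroblasts, which are growth-arrested feeder cells, and the labels do not say that feeders were removed before RNA was taken or whether the derived cells had feeders. No label says that ES 1 and ES 2 are separate cultures, so p-values reflect only how far these particular samples spread, which could be technical. Each derived state is a single library.

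A ribosomal protein is usually present in a single copy per ribosome, and cells make the whole set in matched amounts. The mRNAs start with a run of pyrimidines, the 5′ terminal oligopyrimidine (TOP) tract, through which mTOR and the RNA-binding protein LARP1 adjust their translation. In mammals the genes have also left many processed pseudogenes, intronless copies of their mRNAs that can take up reads of the parent. Translation is known to increase when mouse ES cells form embryoid bodies.

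Depth, read from the smallest steps of the FPKM values (fragment counts divided by gene length and library total), was between 18.1 and 31.5 M fragments. A floor of 3 fragments in a gene of 1 kb was between 0.0954 and 0.166 FPKM, which covers counting error only. All 8 ES cell markers examined were at 1 FPKM or more in every library, the EB library included, and all 4 endoderm markers were under 1 FPKM in every library. Feeder fibroblast markers summed to 549.8 FPKM after LIF withdrawal and 371 FPKM in EB, against 385 in ES 1 and 384 in ES 2. Of 11 feeder markers tested, 11 were above both ES libraries after LIF withdrawal, against 48.4% of all genes tested. Limma called 4 higher there, against 7.32% of genes, and 0 in EB, against 0.396%. At an unadjusted p under 0.05 in limma, 9 were higher and 0 lower after LIF withdrawal, against 24.1% and 13.1% of genes. In EB 4 were higher and 4 lower, against 12.5% and 15.2%. The 4 called after LIF withdrawal were S100a4, Dcn, Col5a2 and Postn. Lum, another fibroblast marker, stayed under 1 FPKM throughout. Of 2 mesoderm markers tested limma called Eomes higher, and of 3 neuroectoderm markers Map2 lower, after LIF withdrawal. T, the other mesoderm marker tested, went the other way, with 0.558 FPKM against 1.00 in ES 1 and 1.14 in ES 2. Mixl1 and Mesp1 stayed under 1 FPKM in every library. At an unadjusted p under 0.05 in limma, 1 mesoderm marker was higher and 1 lower after LIF withdrawal, and 2 neuroectoderm markers were lower. In EB limma called 0 of these 5 tested markers and 0 of the 8 ES cell markers. There 4 of the 5 and 2 of the 8 were lower, and 4 of the 8 higher, at an unadjusted p under 0.05. After LIF withdrawal 37.7% of the FPKM sum came from Gm26465, an snRNA gene. The part of feeder cells and of this transcript in the values below was not tested. In these bulk libraries fewer cells of a type and less RNA per cell cannot be told apart.

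Paralog sequences are shown because they set which levels can be separated. The coding sequence of Rps27rt, a retrocopy (a gene made from an mRNA), was identical to that of Rps27 over 255 of 255 bases. The one of Rps27l differed from Rps27 at 61 bases (76.1% identity), and Rpl39l differed from Rpl39 at 23 of 156 bases (85.3% identity). Rpl36al differed from Rpl36a at 39 of 321 bases and Rpl10l from Rpl10 at 98 of 645. In the following coding sequences from GENCODE M21, capitals mark bases that differ from the gene resembled.
Rps27 (and Rps27rt): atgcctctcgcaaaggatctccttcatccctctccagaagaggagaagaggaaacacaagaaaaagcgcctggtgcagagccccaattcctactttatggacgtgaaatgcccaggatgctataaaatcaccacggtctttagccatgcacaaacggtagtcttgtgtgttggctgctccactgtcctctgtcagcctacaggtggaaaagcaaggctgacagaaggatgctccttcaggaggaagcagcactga
Rps27l: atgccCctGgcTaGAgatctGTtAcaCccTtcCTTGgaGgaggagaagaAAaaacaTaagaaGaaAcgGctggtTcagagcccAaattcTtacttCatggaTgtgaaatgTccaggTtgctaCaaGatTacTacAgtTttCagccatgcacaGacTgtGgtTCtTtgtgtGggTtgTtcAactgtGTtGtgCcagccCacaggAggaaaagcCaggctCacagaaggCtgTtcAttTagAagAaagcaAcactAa
Rpl39: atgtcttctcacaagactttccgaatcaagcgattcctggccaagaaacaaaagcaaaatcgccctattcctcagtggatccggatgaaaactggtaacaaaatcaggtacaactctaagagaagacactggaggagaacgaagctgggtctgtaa
Rpl39l: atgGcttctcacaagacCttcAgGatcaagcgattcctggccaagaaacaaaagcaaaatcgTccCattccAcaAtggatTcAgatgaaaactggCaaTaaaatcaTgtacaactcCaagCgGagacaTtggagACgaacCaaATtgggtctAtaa

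Ribosomal protein mRNAs were among the most abundant transcripts in every library. Their FPKM summed to 58578 after LIF withdrawal and 66655 in EB, against 62012 in ES 1 and 68111 in ES 2. This was 12.8% of the protein-coding FPKM sum after LIF withdrawal and 14.7% in EB, against 13.7% in ES 1 and 14.5% in ES 2. The LIF withdrawal library was the lowest, and EB lay between the ES libraries in the sum and above both in the share. Small-subunit genes summed to 26998 FPKM after LIF withdrawal and 30073 in EB, against 27854 in ES 1 and 30293 in ES 2. Large-subunit genes summed to 31544 FPKM after LIF withdrawal and 36552 in EB, against 34123 in ES 1 and 37779.9 in ES 2. Both subunits were lowest after LIF withdrawal and highest in ES 2. Between 78 and 79 members reached 100 FPKM in each library. The 77 members other than Rps19bp1 and the paralogs ran from 61.1 to 2672 FPKM over the 4 libraries. The ratio of their 90th to their 10th percentile was 5.59 after LIF withdrawal and 4.24 in EB, against 4.21 in ES 1 and 4.46 in ES 2.

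**Figure D1:**
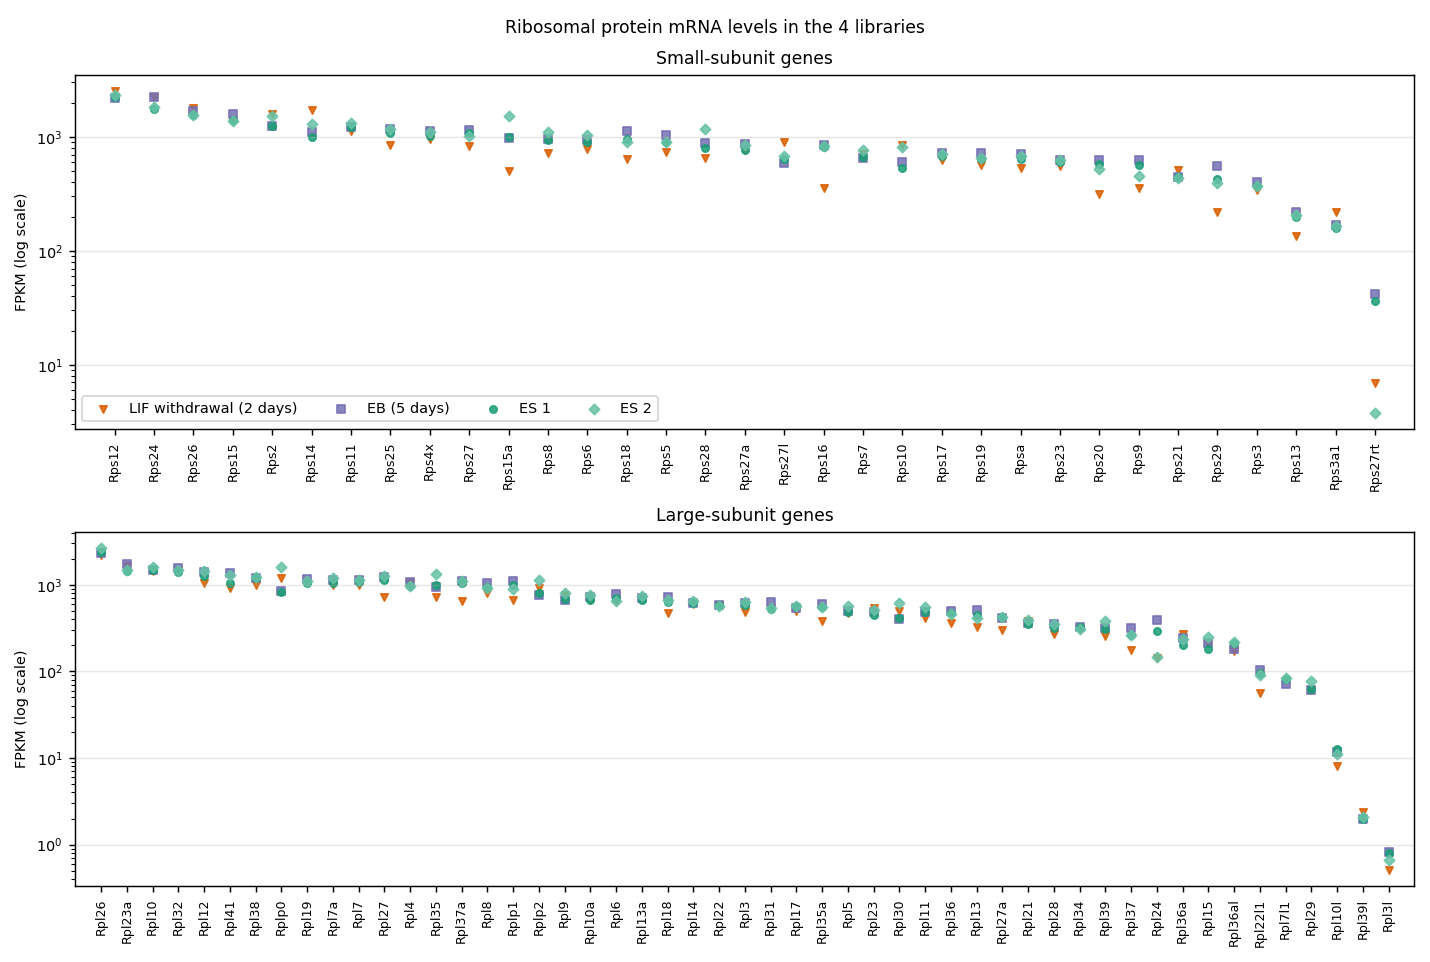
FPKM (log scale) of all 33 small-subunit genes and 51 of the 52 large-subunit genes, Rpl3l included, ordered by mean level; each symbol is 1 library, orange for LIF withdrawal, purple for EB and green for ES 1 and ES 2. Most genes lie between 100 and 2672 FPKM, and the paralogs Rps27rt, Rpl10l, Rpl39l and Rpl3l are far below the rest.

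The highest member by mean level was Rpl26, a protein at the exit of the large subunit's tunnel for the growing chain, with 2198 FPKM after LIF withdrawal and 2343 in EB, against 2362 in ES 1 and 2672 in ES 2. Rps12, of the head of the small subunit, had 2546 FPKM after LIF withdrawal and 2208 in EB, against 2236 in ES 1 and 2322 in ES 2. Rps24, whose human counterpart is mutated in Diamond-Blackfan anaemia, an inherited failure of red cell production, had 2247 FPKM after LIF withdrawal and 2221 in EB, against 1763 in ES 1 and 1817 in ES 2. For this gene the derived libraries both lay above the ES libraries. Rps26, which lies where mRNA leaves the small subunit, had 1786 FPKM after LIF withdrawal and 1687 in EB, against 1564 in ES 1 and 1560.4 in ES 2. Rpl23a, a docking point at the tunnel exit for factors that receive new proteins, had 1669 FPKM after LIF withdrawal and 1722 in EB, against 1426 in ES 1 and 1492 in ES 2. For Rps26 and Rpl23a too, both derived libraries were above both ES libraries, by less than 1.2-fold over the higher ES library.

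The paralogs spanned from the level of ordinary members to under 1 FPKM. Rps27l, a target of the tumour suppressor p53, had 905 FPKM after LIF withdrawal and 596 in EB, against 643 in ES 1 and 684 in ES 2, and Rps27 itself had 839 FPKM after LIF withdrawal and 1154 in EB, against 1071 in ES 1 and 1019.9 in ES 2. After LIF withdrawal Rps27l was above Rps27, and in the other 3 libraries below it. Rps27rt, at chr9:114982366-114982739 (mm10, minus strand), is annotated as a single transcript of 374 bases that fills its whole span. It had 6.91 FPKM after LIF withdrawal and 41.5 in EB, against 36.0 in ES 1 and 3.82 in ES 2. Its levels in EB and ES 1 stood together, well above LIF withdrawal and ES 2. Since its coding sequence equals that of Rps27 and another gene lies opposite it, its reads cannot be assigned with certainty.

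Rpl22l1, a paralog whose expression Rpl22 is known to restrain, had 56.2 FPKM after LIF withdrawal and 103 in EB, against 95.5 in ES 1 and 89.7 in ES 2. Its LIF withdrawal value stood apart below the other 3 libraries. Rpl22 had 580.3 FPKM after LIF withdrawal and 577 in EB, against 587 in ES 1 and 566 in ES 2, a nearly level row. Rpl36al had 173 FPKM after LIF withdrawal and 180.4 in EB, against 211 in ES 1 and 218 in ES 2, and its relative Rpl36a had 269 FPKM after LIF withdrawal and 241 in EB, against 201 in ES 1 and 235 in ES 2. Both derived libraries were thus below both ES libraries for Rpl36al and above both for Rpl36a. Rpl7l1 had 80.0 FPKM after LIF withdrawal and 72.0 in EB, against 82.2 in ES 1 and 83.9 in ES 2, and Rpl7 ran from 994 to 1143 FPKM over the 4 libraries.

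Lowest by mean level were 3 paralogs known for restricted expression in adult tissues. Rpl10l, a retrogene of Rpl10 known from the male germ line, had 8.09 FPKM after LIF withdrawal and 11.8 in EB, against 12.5 in ES 1 and 11.3 in ES 2. Its parent Rpl10, a late-joining protein of the large subunit, had 1439 FPKM after LIF withdrawal and 1491 in EB, against 1475 in ES 1 and 1617 in ES 2. Rpl39l, known from testis, had 2.40 FPKM after LIF withdrawal and 1.98 in EB, against 1.96 in ES 1 and 2.11 in ES 2, and Rpl39 had 253 FPKM after LIF withdrawal and 319 in EB, against 310.0 in ES 1 and 382 in ES 2. Rpl3l, known from heart and skeletal muscle, had 0.512 FPKM after LIF withdrawal and 0.827 in EB, against 0.792 in ES 1 and 0.66 in ES 2. It was the only member under 1 FPKM in every library and was therefore not tested, while Rpl3 had 483 FPKM after LIF withdrawal and 613 in EB, against 582 in ES 1 and 629 in ES 2. The remaining low row, Rps19bp1, had 36.4 FPKM after LIF withdrawal and 29.5 in EB, against 34.8 in ES 1 and 37.8 in ES 2.

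**Figure D2:**
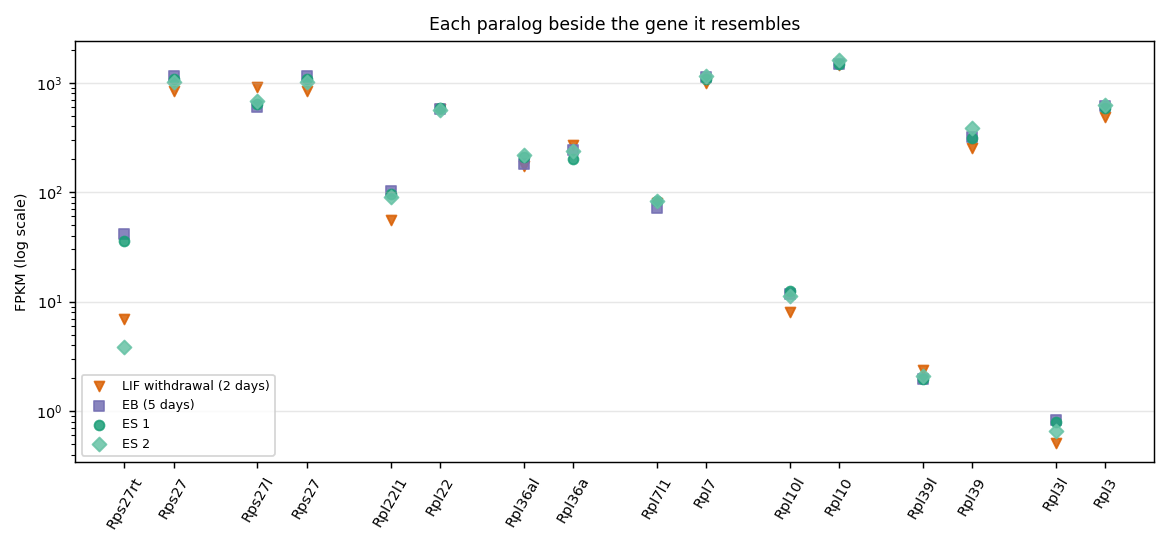
FPKM (log scale) of the 8 paralogs, each to the left of the gene it resembles; symbols are the 4 libraries. Rps27l lies within the range of its relative Rps27 in order of magnitude, whereas Rpl10l, Rpl39l and Rpl3l are orders of magnitude below theirs, and Rps27rt splits into EB with ES 1 and LIF withdrawal with ES 2.

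The ES libraries were not interchangeable for all members. Of 86 members, 65 were higher in ES 2 and 21 in ES 1, with a median absolute difference of 0.11 on the log2(FPKM + 1) scale. At least 0.3 apart were 15 members, 13 of them higher in ES 2, and Rps27rt was the only one at least 1 apart. The others with the largest gaps were Rpl24, Rplp0, Rps15a and Rps10. Rplp0, the base of the stalk that recruits translation factors, had 1196 FPKM after LIF withdrawal and 848 in EB, against 830.4 in ES 1 and 1600.0 in ES 2. Rpl24, mutated in the Belly spot and tail mouse, had 142 FPKM after LIF withdrawal and 395 in EB, against 291 in ES 1 and 145 in ES 2. Rps10, of the small-subunit head, had 847 FPKM after LIF withdrawal and 599 in EB, against 536 in ES 1 and 818 in ES 2, and a gene lies on its opposite strand. Of the 15 members, EB was nearer ES 1 in 14, the exception being Rpl41, with a median absolute distance of 0.074 to ES 1 and 0.45 to ES 2. For Rpl15, 1 of these 14, EB lay about midway, with 214 FPKM after LIF withdrawal and 213 in EB, against 183 in ES 1 and 249 in ES 2. LIF withdrawal was nearer ES 1 in 8 of the 15. These counts and distances are descriptions of single libraries. Shares over all genes are not given for them, so they are not shown to be particular to these members.

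**Figure D3:**
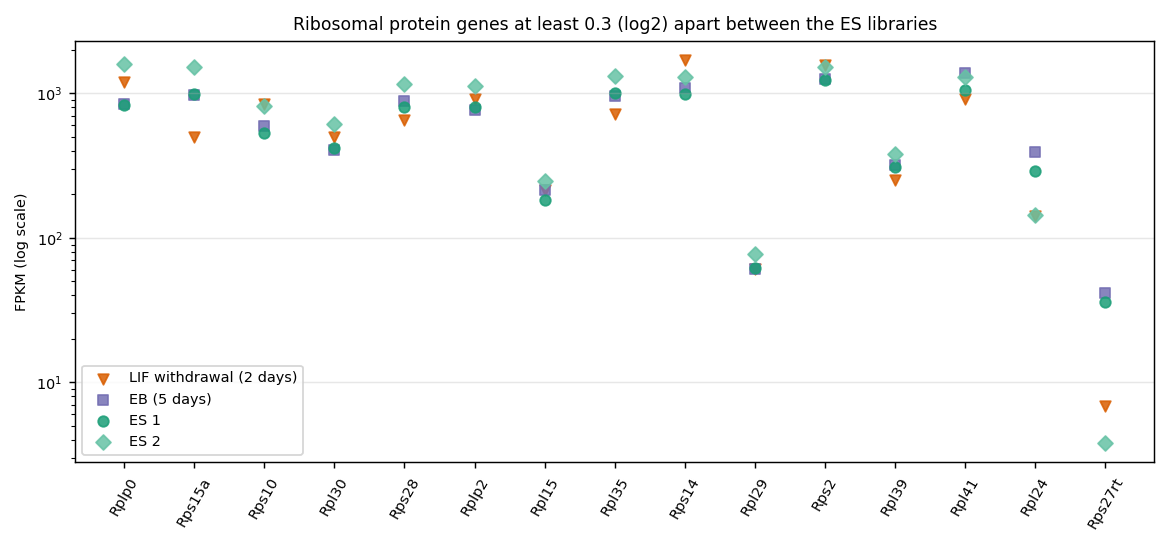
FPKM (log scale) of the 15 members at least 0.3 (log2) apart between the ES libraries, ordered from highest in ES 2 to highest in ES 1; symbols are the 4 libraries. EB (purple) lies nearer ES 1 than ES 2 in 14 of the 15, although about midway for Rpl15, and for Rps15a the LIF withdrawal library is the lowest.

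The copies of these genes also divided the libraries. A search of annotated transcripts with blastn found 1200 other genes that resemble a member at 85% identity or more over at least 70% of the copy, for 82 of the 86 members. The median was 10 copies a member and the highest 89. Of the 1200 copies, 447 were listed at 0 in all 4 libraries. Copies summed to 7319.6 FPKM after LIF withdrawal and 5093 in EB, against 5068 in ES 1 and 3007 in ES 2. Of the LIF withdrawal sum, 4700.4 FPKM came from Gm28911 alone, a copy of Rpl8 of 117 bases listed at 0 in the other libraries. Among the 370 copies at 1 FPKM or more in a library, EB was nearer ES 1 in 270 and nearer ES 2 in 55. LIF withdrawal was nearer ES 1 in 95 and nearer ES 2 in 230. EB was thus more often near ES 1, and LIF withdrawal more often near ES 2. Shares over all genes are not given for these counts either. For this reason FPKM values of single genes are mostly given for each ES library apart. Some genes of the other lists have only a change from the ES mean. How reads of parents and copies were divided was not tested. The labels name no preparation or sequencing batch. Whether EB with ES 1, and LIF withdrawal with ES 2, were prepared or processed apart was not tested, and with 1 library per derived state such a difference cannot be told apart from one between cell states. Counts of members above and below ES are therefore also given against each ES library alone.

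Single copies reached the level of ribosomal protein mRNAs. Gm8730, a copy of Rplp0 with 98.7% identity, had 292 FPKM after LIF withdrawal and 535 in EB, against 484 in ES 1 and 481 in ES 2. Rps3a3, a copy of Rps3a1 with 98.9% identity, had 420.1 FPKM after LIF withdrawal and 372 in EB, against 346 in ES 1 and 388 in ES 2, above Rps3a1 itself in every library. Rps3a1 had 221 FPKM after LIF withdrawal and 170.0 in EB, against 159 in ES 1 and 165 in ES 2, so its level is uncertain. Gm11572, a copy of Rps27 of 120 bases, had 440.3 FPKM in EB and 459 in ES 1, and was listed at 0 after LIF withdrawal and in ES 2. Gm10443, a copy of Rps28 with 100% identity, had 29.96 FPKM after LIF withdrawal and 201 in EB, against 219 in ES 1 and 57.5 in ES 2. Across the 86 members the Spearman correlation between the number of copies and the absolute ES difference was 0.12, a description over genes that share these 2 libraries.

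After 2 days without LIF most ribosomal protein mRNAs lay below the ES libraries, by small amounts. Of 85 members tested, 55 were below both ES libraries, a place held by 36.6% of all 15676 genes tested, and 39.7% of protein-coding genes. Above both were 16 members, against 48.4% of all genes, and 14 lay between. The median change against the ES mean was -0.17 on the log2(FPKM + 1) scale, against 0.041 over all genes tested. When libraries were scaled to the same FPKM sum the numbers became 83 below and 0 above both. The member median was then -0.81, and the median of all genes moved to -0.51. Shares of all genes below and above both are not given in that scale. Relative to the median of all genes the member median was -0.30 in that scale and -0.21 in the deposited one.

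By size, 28 members were at least 1.2-fold below both ES libraries, against 13.4% of all genes tested, and 4 at least 1.2-fold above, against 26.1%. At 1.5-fold there were 8 below, against 3.32% of genes, and 0 above, against 14.1%. At 2-fold only Rps16 was below, against 0.836% of genes, and 0 members were above, against 8.84%. Limma called 1 of the 85 members (adjusted p under 0.05 and a log2 change of at least 1), where it called 7.67% of all genes, 7.32% as higher and 0.357% as lower. At an adjusted p under 0.05 of any size limma had 2 lower members, Rps16 and Rpl37, against 1.15% of genes, and 0 higher members, against 8.87%. At an unadjusted p under 0.05 there were 16 lower and 2 higher members, against 13.1% and 24.1% of genes. These counts rest on both ES libraries: set against ES 1 alone, 57 members were below and 28 above, and against ES 2 alone 67 were below and 18 above. At 2-fold, 3 were below ES 1 alone and 2 below ES 2 alone.

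Rps16, a small-subunit protein at chr7:28350652-28353155 (mm10, plus strand), was the member called. It had 354 FPKM after LIF withdrawal and 841 in EB, against 808 in ES 1 and 823 in ES 2. The LIF withdrawal value stood apart, and the other 3 libraries lay close together. It fell by 1.2 on the log2 scale (SE 0.057, adjusted p 0.0437 in limma), to a level 0.438 times that of ES 1 and 0.430 times that of ES 2. The call ended with a pseudocount of 0.1 (change -1.20, limma adjusted p 0.0654) and after scaling to the same FPKM sum (change -1.84, limma adjusted p 0.0946). The size of the change was not smaller in either, but with equal FPKM sums the median of all genes also moved, to -0.51. Over 9 alternatives the limma adjusted p ran from 1.04e-48, with no filter on low values, to 0.0946. Its 8 copies together had 12.6 FPKM after LIF withdrawal and 54.1 in EB, against 49.9 in ES 1 and 18.8 in ES 2.

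Rpl37, a zinc-binding protein of the large subunit, had 174 FPKM after LIF withdrawal and 316 in EB, against 263 in ES 1 and 264 in ES 2. It fell by 0.59 (SE 0.029, limma adjusted p 0.044), less than the size a call needs. Rps15a had 499 FPKM after LIF withdrawal and 979.7 in EB, against 996 in ES 1 and 1527 in ES 2, a log2 change of -1.30 (SE 0.41) that did not pass in limma, adjusted p 0.198. LIF withdrawal was lowest for this gene, but ES 2 was also far above ES 1. Rps29, another zinc-binding protein of the small-subunit head, had 219.7 FPKM after LIF withdrawal and 552 in EB, against 427 in ES 1 and 395 in ES 2. Its change was -0.90 (SE 0.08), with a limma adjusted p of 0.0722. For Rpl37, Rps15a and Rps29 the LIF withdrawal value lay below both ES libraries, a place held by 36.6% of all genes tested.

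Rps20, of the small-subunit head, had 314 FPKM after LIF withdrawal and 626 in EB, against 579 in ES 1 and 524 in ES 2, a change of -0.81 with a limma adjusted p of 0.0937. Rpl37a, another zinc-binding protein, had 649.6 FPKM after LIF withdrawal and 1096 in EB, against 1039 in ES 1 and 1119 in ES 2. Its change was -0.73, with a limma adjusted p of 0.0988. Rps20 and Rpl37a lay below both ES libraries by more than 1.5-fold. Rps27rt had a change of -0.76 from the ES mean, but its LIF withdrawal value lay between ES 2 and ES 1. The 8 members at least 1.5-fold below both ES libraries, listed after their values were seen, were Rps15a, Rps16, Rps20, Rps29, Rpl22l1, Rpl27, Rpl37 and Rpl37a. They are 4 small-subunit and 4 large-subunit genes.

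In the other direction the 4 members at least 1.2-fold above both ES libraries, also listed after their values were seen, were the small-subunit genes Rps14, Rps24, Rps27l and Rps3a1. Rps14, lost in the human 5q- syndrome, a bone marrow disorder, had 1706 FPKM after LIF withdrawal and 1097 in EB, against 998 in ES 1 and 1303 in ES 2, a change of 0.58 (SE 0.27) with a limma adjusted p of 0.289. A gene lies on its opposite strand. Rps27l differed by 0.45 (SE 0.081, limma adjusted p 0.121) and Rps3a1 by 0.45 (SE 0.042, limma adjusted p 0.0745), so none of these passed. Rps10 differed by 0.35, Rps24 by 0.33 and Rpl36a by 0.30 from the ES mean, with limma adjusted p of 0.592, 0.291 and 0.309. For these 3 genes LIF withdrawal was above both ES libraries. By subunit, 22 of 33 small-subunit genes were below both ES libraries and 9 above, with a median change of -0.18. Of 51 large-subunit genes tested, 33 were below and 7 above, with a median of -0.17. The shares over all genes tested were 36.6% below and 48.4% above.

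**Figure D4:**
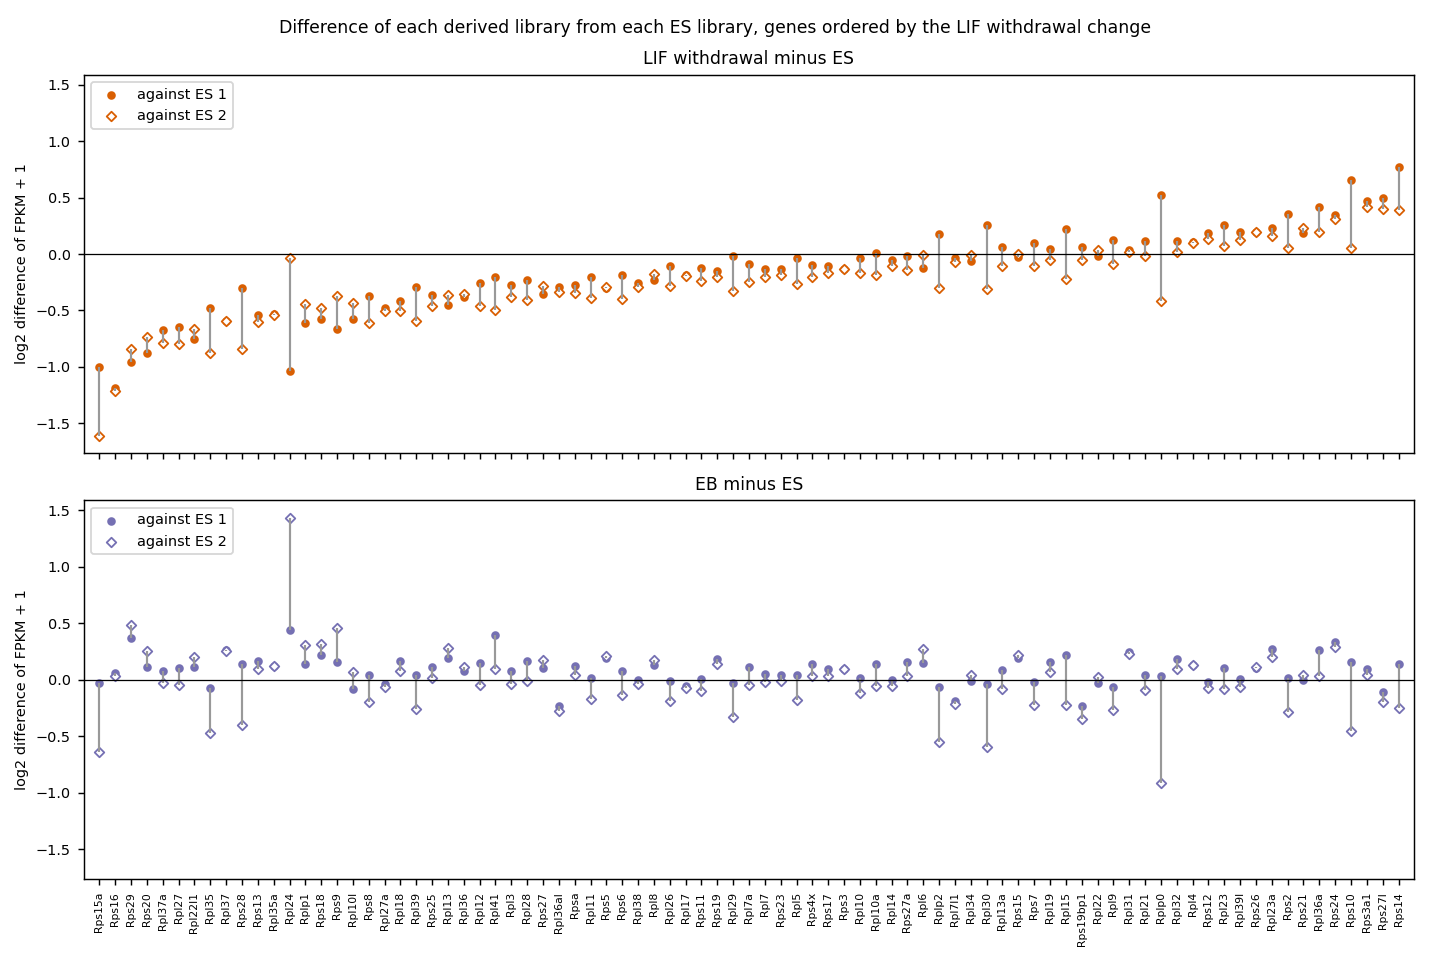
Log2 difference of FPKM + 1 of the LIF withdrawal library (upper panel) and the EB library (lower panel) from ES 1 (filled circles) and ES 2 (open diamonds), for 83 genes ordered by the LIF withdrawal change; Rps27rt and Rpl3l are among those left out. After LIF withdrawal most genes lie below 0 against both ES libraries (83 of 86 when libraries are scaled to the same FPKM sum, where the median of all genes also falls, to -0.51). The EB points straddle 0, and Rpl24 and Rplp0 have the widest gaps between the ES libraries.

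After 5 days without LIF, in the EB library, ribosomal protein mRNAs were near the ES levels. Of 85 members, 38 were above both ES libraries, against 37.6% of all genes tested, 16 were below both, against 42.9%, and 31 lay between. The member median was 0.029 on the log2(FPKM + 1) scale, against -0.0064 over all genes tested. With libraries scaled to the same FPKM sum it was -0.068, against -0.084 over all genes, with 20 members above and 26 below both ES libraries. The direction of the member median thus turned with the scaling. At least 1.2-fold above both were 3 members, Rps24, Rps29 and Rpl24, against 13.7% of genes, and 0 were as far below, against 14.7%. At 1.5-fold there were 0 above, against 4.77% of genes, and 0 below, against 3.35%, and at 2-fold 0 above, against 1.63%, and 0 below, against 0.734%. Limma called 0 of 85 members, and 0.396% of all genes. At an unadjusted p under 0.05 it had 3 higher and 2 lower members, against 12.5% and 15.2% of genes. Against ES 2 alone 43 members were below and 42 above, and against ES 1 alone 20 were below and 65 above. At 1.2-fold, 12 were below ES 2 alone and 0 below ES 1 alone.

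Small-subunit genes were above both ES libraries in 20 of 33 cases and below both in 4, with a median EB change of 0.071. Of the 51 large-subunit genes tested, 18 were above both and 11 below, with a median of 0.019. Of all genes tested, 37.6% were above both and 42.9% below, so the large-subunit share above was near that of all genes, and the difference between subunits was not tested. Rps29 had an EB change of 0.43 (SE 0.08, limma adjusted p 0.171), and Rps24 one of 0.31 (SE 0.15, limma adjusted p 0.354). Rps9, near the site where mRNA enters, had 354 FPKM after LIF withdrawal and 630.0 in EB, against 563 in ES 1 and 458 in ES 2, an EB change of 0.31 with a limma adjusted p of 0.441. EB was the highest library for Rps29 and Rps9. Rpl24 had an EB change of 0.94 (SE 0.65, limma adjusted p 0.468), and Rps27rt one of 1.67 (SE 1.91, limma adjusted p 0.643). For Rps27rt EB was above both ES libraries, but only 1.15 times ES 1.

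The lowest EB changes belonged mainly to genes high in ES 2. They were -0.44 for Rplp0, -0.33 for Rps15a and -0.27 for Rpl35, a protein near the tunnel exit, with limma adjusted p of 0.696, 0.663 and 0.593. Rpl35 had 723 FPKM after LIF withdrawal and 954 in EB, against 1005 in ES 1 and 1325 in ES 2. Rpl30 had 499 FPKM after LIF withdrawal and 408 in EB, against 417 in ES 1 and 618 in ES 2, a change of -0.32, and Rplp2, an acidic protein of the stalk, had 911 FPKM after LIF withdrawal and 769 in EB, against 804 in ES 1 and 1123 in ES 2, a change of -0.31. For Rpl30, Rplp2, Rpl35 and Rps15a EB lay close under ES 1, while ES 2 was the highest library. Rps19bp1 differed by -0.29 (SE 0.077, limma adjusted p 0.215), with EB the lowest library.

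Set directly against each other, EB was higher than LIF withdrawal for 63 of the 86 members, against 42.1% of genes tested. The median difference, EB minus LIF withdrawal, was 0.21 on the log2 scale, against -0.075 over all genes tested. At least 1.5-fold higher in EB were 17 members, against 9.87% of genes, and 2 were as far lower, against 17.4%. The 2 lower ones, named after their values were seen, were Rps14 and Rps27l. This sets 1 library against 1, so there is no test. With libraries scaled to the same FPKM sum the median was 0.75. The comparisons of LIF withdrawal and of EB with ES share both ES libraries, so their changes are not independent of each other.

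Sequences at the transcription start are shown for some genes at the ends of the range, and for Rps27 and its retrocopy Rps27rt, since a pyrimidine tract there marks TOP mRNAs. Of the 86 genes, 66 were found in the RefSeq promoter table (GRCm38.p6, 250 bases before to 50 bases after each start). A run of at least 8 C or T bases touching the stretch from 10 bases before to 20 after the start occurred in 31 of them (47.0%), and in 19.2% of all 27025 genes of the table. For this share and the motif shares below, a gene counted if any of its RefSeq starts had a match. Where a gene had several starts, the window shown is for the start with the longest such run. The following windows hold 30 bases before and 25 bases after that start on the gene's strand, with the longest such C or T run in capitals.
Rps16, chr7:28350659-28350713, plus strand: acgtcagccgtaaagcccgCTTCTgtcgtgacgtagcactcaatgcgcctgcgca
Rps15a, chr7:118116123-118116177, minus strand: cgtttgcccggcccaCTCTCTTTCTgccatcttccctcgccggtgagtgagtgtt
Rps24, chr14:24490648-24490702, plus strand: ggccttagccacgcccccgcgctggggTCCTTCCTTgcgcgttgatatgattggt
Rps27, chr3:90213624-90213678, minus strand: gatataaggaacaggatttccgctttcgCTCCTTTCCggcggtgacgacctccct
Rps27rt, chr9:114982715-114982769, minus strand: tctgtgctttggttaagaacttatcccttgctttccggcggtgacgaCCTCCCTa
The run was 10 bases long in Rps15a, which had the lowest change from the ES mean after LIF withdrawal but, against ES 1 alone, stood above Rps27rt, Rps16 and Rpl24. It was 9 bases long in Rps24, which was above both ES libraries there. In Rps16, the gene called lower, the longest run had 5 bases at this annotated start. In other genes examined, whose windows are not printed, the longest run had 18 bases in Rpl35, 13 in Rps10 and 9 in Rps27l. It had 7 bases in Rplp0 and 3 in Rpl24 and in Rpl37a. Within the whole 300-base windows the ETS-type motif CCGGAAGT, searched on both strands, was present in 12 of the 66 genes (18.2%) and in 4.31% of all genes. The motif AAGATGGC, part of the YY1 motif, was present on either strand in 6 (9.09%), against 3.19% of all genes. CTCTTTC, which can overlap the pyrimidine run, was present on either strand in 18 (27.3%), against 9.28% of all genes. Such matches are descriptions of letters, not of binding.

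Of the 86 members, 30 host small nucleolar RNAs (snoRNAs), guides for rRNA modification that are cut from introns, in 58 annotated rows. These snoRNA rows summed to 1131 FPKM after LIF withdrawal and 2672 FPKM in EB, against 1532 in ES 1 and 349 in ES 2. Over all annotated snoRNAs the sum was 6269.9 FPKM after LIF withdrawal and 24788 FPKM in EB, against 17359 in ES 1 and 4557 in ES 2. The ES libraries thus differed several-fold in snoRNAs as a whole, and those within ribosomal protein genes followed the same order of EB, ES 1, LIF withdrawal and ES 2. Host genes had a median change of -0.14 after LIF withdrawal and 0.025 in EB, and the 56 other members -0.18 and 0.029. Members with a gene on the opposite strand (24) had medians of -0.17 and 0.049, and those without (62) -0.17 and 0.024.

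Ribosomal proteins with other symbols were listed apart. Rack1, a scaffold protein on the small-subunit head, had 885 FPKM after LIF withdrawal and 1376 in EB, against 1215 in ES 1 and 1239 in ES 2. Fau, a fusion of a ubiquitin-like protein and a small-subunit protein, had 649 FPKM after LIF withdrawal and 568 in EB, against 552 in ES 1 and 576 in ES 2. Rack1 was lowest after LIF withdrawal and highest in EB, and Fau was highest after LIF withdrawal. Limma called neither gene, with adjusted p of 0.127 for Rack1 and 0.199 for Fau after LIF withdrawal.

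Other TOP mRNAs, here 14 translation factors and related genes, lay nearer the ES levels after LIF withdrawal than the ribosomal protein genes did in their median. Of the 14, 7 were below both ES libraries after LIF withdrawal and 3 above, with a median of -0.037. In EB 9 were below and 3 above, with a median of -0.07. Among all genes tested 36.6% were below both and 48.4% above after LIF withdrawal, and 42.9% and 37.6% in EB. The lowest after LIF withdrawal were Eef2, the translocation factor, at -0.41 and Npm1, a nucleolar chaperone, at -0.31, and the highest were Eef1d at 0.15 and Eif3h at 0.081. In EB the lowest were Eef1g at -0.37 and Eef1d at -0.31, and the highest Tpt1 at 0.15 and Eef1b2 at 0.11. For Eef1b2, however, EB lay between the ES libraries, with 529.5 FPKM against 529.6 in ES 1 and 452 in ES 2. Limma called none in either comparison, with 2 lower and 0 higher in each at an unadjusted p under 0.05, where all genes had 13.1% lower and 24.1% higher after LIF withdrawal and 15.2% and 12.5% in EB.

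Ribosome biogenesis factors, which process rRNA and assemble subunits, had 19 of 38 below both ES libraries after LIF withdrawal (36.6% of all genes) and 14 above (48.4%), with a median of -0.022. In EB 34 of the 38 were below both (42.9% of all genes) and 1 above (37.6%), with a median of -0.16. Limma called none in either comparison. At an unadjusted p under 0.05 there were 8 lower and 2 higher after LIF withdrawal, against 13.1% and 24.1% of all genes, and 14 lower and 0 higher in EB, against 15.2% and 12.5%. Nop10, a subunit of the pseudouridine-forming snoRNPs, had 19.9 FPKM after LIF withdrawal and 48.3 in EB, against 55.0 in ES 1 and 50.3 in ES 2, a LIF withdrawal change of -1.36 with a limma adjusted p of 0.0556. Dkc1, the enzyme of the same particles, had 382 FPKM after LIF withdrawal and 261 in EB, against 285 in ES 1 and 319 in ES 2. After LIF withdrawal Dkc1 thus lay above both ES libraries, and Nop10 below both, as did Gar1 and Nhp2 of the same list. Pes1 differed by -0.26 and Rpf2 by 0.23 there. In EB the lowest were Rrp12 at -0.37 and Grwd1 at -0.35, and the highest Taf1d at 0.13 and Ubtf at -0.015.

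Mitochondrial ribosomal proteins, which serve the separate ribosomes of mitochondria, had 47 of 78 below both ES libraries after LIF withdrawal (36.6% of all genes) and 20 above (48.4%), with a median of -0.16. In EB 58 of 78 were below (42.9% of all genes) and 11 above (37.6%), with a median of -0.17. Limma called none at the size needed, and at an unadjusted p under 0.05 it had 25 lower and 5 higher after LIF withdrawal, against 13.1% and 24.1% of all genes, and 27 lower and 2 higher in EB, against 15.2% and 12.5%. At an adjusted p under 0.05 of any size 2 fell after LIF withdrawal, against 1.15% of all genes. Mrpl20 had 35.2 FPKM after LIF withdrawal and 55.8 in EB, against 61.1 in ES 1 and 61.7 in ES 2 (change -0.79, limma adjusted p 0.0228), and Mrpl53 had 12.8 FPKM after LIF withdrawal and 18.7 in EB, against 19.4 in ES 1 and 19.7 in ES 2 (change -0.57, limma adjusted p 0.0499). The highest after LIF withdrawal were Mrps30 at 0.35 and Mrpl32 at 0.31. In EB the lowest were Mrps7 at -0.73 and Mrps23 at -0.65, and the highest Mrps6 at 0.72 and Mrpl52 at 0.39. For Mrpl52, however, EB lay between the ES libraries, with 50.4 FPKM against 52.6 in ES 1 and 27.8 in ES 2. No difference between these lists and the cytoplasmic ribosomal protein genes was tested.

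**Figure D5:**
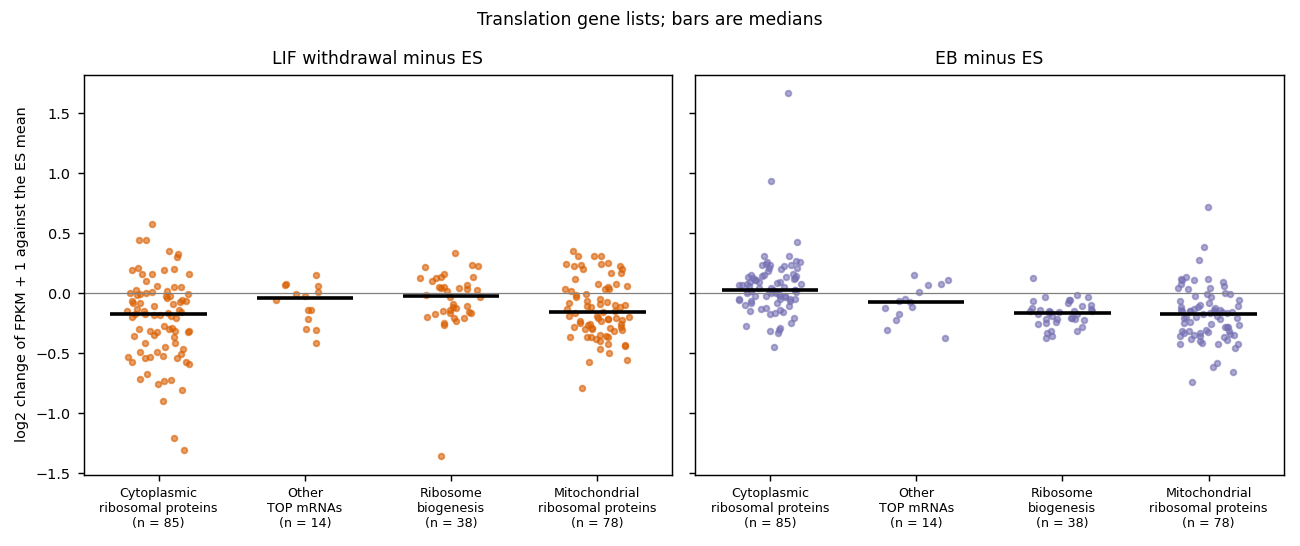
Log2 change of FPKM + 1 against the ES mean, LIF withdrawal in the left panel and EB in the right; each point is a gene and each bar a list's median. After LIF withdrawal the medians are -0.17 for cytoplasmic ribosomal protein genes, -0.037 for other TOP mRNAs, -0.022 for ribosome biogenesis and -0.16 for mitochondrial ribosomal proteins. In EB they are 0.029, -0.07, -0.16 and -0.17, in the same order. With libraries scaled to the same FPKM sum the cytoplasmic median in EB is -0.068, against -0.084 over all genes. Medians of the other lists are not given in that scale.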

How the data were processed

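Values are the FPKM that the authors deposited, 1 per gene and library. Per the submitters' processing notes, Trimmomatic 0.36, STAR, Cufflinks and the build mm10 were used; the sources used here do not state roles, options, strand setting or annotation release. FPKM is relative to each library's total, so an abundant transcript can lower all other values, and short genes weigh heavily in FPKM sums. Gene types and positions came from GENCODE mouse release 21 (47219 of 47633 identifiers matched, 414 did not). The test was limma 3.58.1 (R 4.3.3) applied to log2(FPKM + 1) for every gene that reached 1 FPKM in any library. A single model had 3 group means and 1 residual degree of freedom, given by the ES libraries. A lone derived library is assumed to vary as ES cells do. P-values were Benjamini-Hochberg adjusted over all 15676 genes. Changes are on the log2(FPKM + 1) scale, which understates those of low genes. Copies were found with blastn 2.17.0. The fit was tested on simulated data. Members and lists were chosen with earlier results of these data known. Named genes were the 5 most abundant, the 6 highest and 6 lowest per comparison, the 5 with the largest ES difference, the 5 lowest in level, each paralog with its relative, and the 2 highest and 2 lowest of each list, except that some results are not reported here. Alternatives covered filter, pseudocount, scaling, gene set, copies and each ES library left out. Python 3.11.15 was used.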

Additional observations from a re-analysis of the deposited data

Results flagged for a closer look

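For 29 of the 85 ribosomal protein genes tested the derived libraries lay on opposite sides of both ES libraries. EB was above both and LIF withdrawal below both for 27 of them, against 10.6% of all genes, and the reverse held for 2, against 16.8%. The difference between the libraries was not tested, since each is a single library. Values are given for 11 of the genes described above. EB was the higher for Rps16, Rps20, Rps9, Rps29, Rps27, Rpl24, Rpl37, Rpl41 and Rpl22l1. Their EB minus LIF withdrawal differences on the log2(FPKM + 1) scale were 1.25 for Rps16, 0.99 for Rps20, 0.83 for Rps9, 1.33 for Rps29, 0.46 for Rps27, 1.47 for Rpl24, 0.85 for Rpl37, 0.60 for Rpl41 and 0.87 for Rpl22l1. EB was the lower for Rps12, with a difference of -0.21, and Rps27l, with a difference of -0.60. Some values lay only just beyond ES. EB was 1.02 times ES 2 for Rps16 and 0.988 times ES 1 for Rps12. For Rpl24 LIF withdrawal was 0.975 times ES 2, and the ES libraries were themselves far apart, with 291 FPKM in ES 1 and 145 in ES 2.

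Signal appeared in copies outside the ribosomal protein genes that were listed at 0 in both ES libraries. After LIF withdrawal, Gm28911, a copy of Rpl8, had 4700.4 FPKM. In EB, Gm14513, a copy of Rps3, had 99.4 FPKM and Gm42935, a copy of Rpl39, had 12.6 FPKM. A listed 0 can be a failed estimate, so no fold is given.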

How the results depend on the processing

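No paired analysis was possible because each derived group has 1 library and shares fewer than 2 replicate numbers with the ES libraries. The count of limma calls after LIF withdrawal (1) became 2 with no filter on low values and 0 with a pseudocount of 0.1. It became 0 with equal FPKM sums and 2 with all sequence copies added. In the last setting Rps16 was still called lower (change -1.21, limma adjusted p 0.0419), and the direction of the other call is not given. In EB the count became 1 with no filter. The Rps16 adjusted p was called in 7 of 9 alternatives with a test and ranged from 1.04e-48 with no filter, where rows listed at 0 enter the estimate of spread, to 0.0946. With no filter Rps15a (LIF withdrawal) and Rps27rt (EB) also passed. With equal FPKM sums after LIF withdrawal, the median was -0.81, against -0.51 over all genes. Then 0 members were above and 83 below both ES libraries, 0 at least 1.2-fold above, 76 at least 1.2-fold below, 56 at 1.5-fold and 17 at 2-fold below. Shares of all genes are not given in that scale. In EB equal FPKM sums gave a median of -0.068, 20 above, 26 below and 1 at least 1.2-fold below. The EB minus LIF withdrawal median was then 0.75, or 0.29 with median-of-ratios scaling. At 2-fold below after LIF withdrawal there were 2 with median-of-ratios scaling and 2 with equal protein-coding sums. Adding all copies gave 1 member at least 1.5-fold and 1 at least 2-fold above after LIF withdrawal, and 6 at least 1.2-fold above in EB, where equal protein-coding sums gave 5. The FPKM of copies were added without weighting by length. Rpl8, at 808 FPKM after LIF withdrawal, thereby gained 4700.4 FPKM there and 0 in the other libraries, which put it at least 2-fold above. Leaving out either ES library, which also makes these counts easier to meet, gave after LIF withdrawal a median of -0.22 to -0.13, 18 to 28 above, 57 to 67 below, 5 to 8 and 30 to 39 at least 1.2-fold above and below, 1 to 2 and 12 to 13 at 1.5-fold, and 2 to 3 at 2-fold below. In EB it gave a median of -0.0097 to 0.11, 42 to 65 above, 20 to 43 below, 6 to 9 and 0 to 12 at 1.2-fold, 0 to 2 and 0 to 3 at 1.5-fold, and 0 to 2 at 2-fold above. The cause of these shifts was not tested. Adding all copies, equal protein-coding sums and leaving out Rps19bp1 and the paralogs were chosen after seeing the data; with those 9 rows left out 51 of 77 were below both ES libraries after LIF withdrawal and 14 above.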

Other observations

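Genes known to regulate ribosomal protein synthesis gave further values, none of them called by limma. Mycn, a transcription factor of the Myc family that promotes ribosome production, had 86.8 FPKM after LIF withdrawal and 121 in EB, against 155 in ES 1 and 148 in ES 2, and the LIF withdrawal value was the lowest (limma adjusted p 0.0573). Myc had 26.1 FPKM after LIF withdrawal and 17.7 in EB, against 17.1 in ES 1 and 16.4 in ES 2, with LIF withdrawal the highest (limma adjusted p 0.0634). Trp53, which encodes p53, had 195 FPKM after LIF withdrawal and 265 in EB, against 237 in ES 1 and 239 in ES 2, and Mdm2, its ubiquitin ligase, which free ribosomal proteins are known to bind, had 111 FPKM after LIF withdrawal and 115 in EB, against 96.2 in ES 1 and 95.2 in ES 2. Larp1, the binder of TOP mRNAs, had 119 FPKM after LIF withdrawal and 99.3 in EB, against 126 in ES 1 and 129 in ES 2, with EB the lowest library. At an unadjusted p under 0.05, limma had 3 of the 12 regulators lower and 2 higher after LIF withdrawal, against 13.1% and 24.1% of all genes, and 2 lower and 2 higher in EB, against 15.2% and 12.5%.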
